A study of Mus musculus with 7 samples.

Results

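ISG15 is a small ubiquitin-like protein that interferon induces and that cells attach to other proteins. The genes described here are Isg15 itself, the activating enzyme Uba7 (E1), the conjugating enzyme Ube2l6 (E2), the ligase Herc6 (E3), the protease Usp18 and the exonuclease Isg20. They were taken by gene symbol from the deposited count table, which held all 6 among its 24421 genes, and all 6 passed the filter on low counts that left 13545 genes to test. Polyadenylated RNA had been sequenced from 7 mouse tumours, each from its own named mouse, sampled at week 4. Every mouse had received anti-PD-1, together with the control antibody anti-KLH in 3 mice and with anti-LAIR1 in 4 mice. The series text describes tumours of the lung cancer line 344SQ (from mice of genotype K-rasLA1/+p53R172H∆g/+) grown under the skin of 129/Sv mice aged 6 to 8 weeks, and lung tumours induced by adenovirus-cre in KrasLSL-G12D/p53fl/fl mice, infected at an age of 3 to 4 months and treated from 2 months later. Doses are stated for the first kind (10 mg/kg of the LAIR1 antibody, 8 mg/kg of anti-PD-1), but nothing in the labels ties the 7 libraries to either kind. Mouse names begin with LOHM or KWM in the controls and with WTSV in the anti-LAIR1 group, so whatever the prefixes stand for cannot be told apart from the treatment.

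Conjugation of ISG15 runs like that of ubiquitin: UBA7 activates the protein, UBE2L6 carries it, and a HERC ligase transfers it to a target, the role that HERC6 fills in mice. USP18 cuts ISG15 off again, and separately from that activity it binds the type I interferon receptor and damps its signal. ISG20 degrades RNA and is not part of the conjugation chain, and is grouped here as another interferon-stimulated gene. Interferon acts on these genes through a complex that includes STAT2 and IRF9 and binds a short DNA element, the interferon-stimulated response element. LAIR1 is a collagen-binding inhibitory receptor of leukocytes, PD-1 an inhibitory receptor of T cells, and anti-KLH binds keyhole limpet haemocyanin, which mice do not make.

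Total counts lay between 9879762 and 26255727 per library, and 3 reads were worth 0.119 to 0.305 CPM (counts scaled to a common library total). The targeted receptor Lair1 averaged 5.46 ± 1.85 CPM (SD, n = 3) in controls and 8.34 ± 1.77 CPM (SD, n = 4) with anti-LAIR1, in groups that overlapped, and an antibody need not change the level of this RNA. Tumour epithelial markers (Epcam, Cdh1 and 4 keratins) summed to 4743 to 5878 CPM in controls and 4845 to 5848 CPM with anti-LAIR1, and the lung lineage factor Nkx2-1 was present in all 7 libraries.

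Promoters are printed to show where matches to the response element lie. RefSeq (GRCm38.p6, the C57BL/6J reference, not the mice sampled) gave promoters for 5 members, not for Usp18. The element's core was searched on both strands as GAAA and GAAA set 2 bases apart, and the gamma-activated site, an element of the interferon gamma response, as TTC and GAA set 3 bases apart, in windows reaching from 250 bases before to 50 bases after each start. Below are the 150 bases before the start of 4 members, 5′ to 3′ on the gene's strand, with matches in capitals. Uba7 is not printed, because an annotated exon reaches into that stretch.
Isg15, chr4:156200819-156200968, minus strand: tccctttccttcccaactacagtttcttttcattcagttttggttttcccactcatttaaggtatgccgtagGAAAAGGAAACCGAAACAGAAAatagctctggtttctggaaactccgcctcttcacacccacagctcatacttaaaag
Ube2l6, chr2:84798678-84798827, plus strand: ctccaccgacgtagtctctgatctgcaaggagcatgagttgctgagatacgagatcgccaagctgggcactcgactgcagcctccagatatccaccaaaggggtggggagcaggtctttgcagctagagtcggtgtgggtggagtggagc
Herc6, chr6:57580842-57580991, plus strand: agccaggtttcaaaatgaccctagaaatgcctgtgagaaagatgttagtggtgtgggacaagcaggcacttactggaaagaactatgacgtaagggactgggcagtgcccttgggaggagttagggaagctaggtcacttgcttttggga
Isg20, first of 3 starts, chr7:78913274-78913423, plus strand: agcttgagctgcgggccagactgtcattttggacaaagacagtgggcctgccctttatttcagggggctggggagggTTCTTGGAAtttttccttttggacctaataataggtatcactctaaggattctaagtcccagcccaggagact

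The capitals in Isg15 are 3 overlapping matches to the response element core, together spanning -78 to -57 from the start. Among 32851 RefSeq promoters of the same length, 3.44% held at least 1 such match and 5 promoters (0.0152%) held 3 or more. No match to this core was found in the windows of Uba7, Ube2l6, Herc6 and Isg20. Isg20 held the 1 match to the gamma-activated site among the members, at -73 to -65, and 8.30% of promoters held that motif. No member matched GGAA and GAAA set 2 bases apart, a composite of ETS and IRF sites that overlaps the core in part and was held by 2.72% of promoters. Of 23 other genes named by rule that have a RefSeq promoter, 6 held the response element core. The rest, among them Irf7, Parp12 and Dtx3l, did not. For comparison, stretches around this core are given for 4 of the 6, which recur among the results. The capitals there show it in reverse complement, as TTTC and TTTC.
Ifit1, chr19:34640775-34640823: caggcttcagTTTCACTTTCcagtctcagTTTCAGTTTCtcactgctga
Ifit3, chr19:34583363-34583426: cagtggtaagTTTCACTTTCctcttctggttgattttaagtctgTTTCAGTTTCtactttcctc
Gbp5, chr3:142496759-142496788: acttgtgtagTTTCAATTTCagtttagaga
Stat2, chr10:128270266-128270295: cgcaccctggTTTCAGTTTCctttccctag
Ifit1 and Ifit3 held 2 separate matches each, Gbp5 and Stat2 held 1 each, and the 3 of Isg15 were the most among the members and the other genes named by rule that have a RefSeq promoter.

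Isg15 and Usp18, the modifier and its protease, differed most between the groups. Their fitted levels were 2.28-fold and 2.49-fold higher with anti-LAIR1, and in both every anti-LAIR1 tumour lay above every control. The conjugating enzymes differed less and overlapped. All 6 genes had a positive fold change, with a median of 0.65 on the log2 scale against -0.0028 over all genes tested, of which 49.1% were above 0. By edgeR's quasi-likelihood test 0 of the 6 passed an adjusted p of 0.05, as did 0% of the 13545 genes. At an unadjusted p under 0.05, 4 of the 6 were higher and 0 lower, against 3.51% of all genes higher and 1.63% lower. The groups did not overlap for 3 of the 6, all higher, against 3.06% of all genes. The members were chosen with earlier results of these libraries known, so these shares describe them and do not test them.

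**Figure D1:**
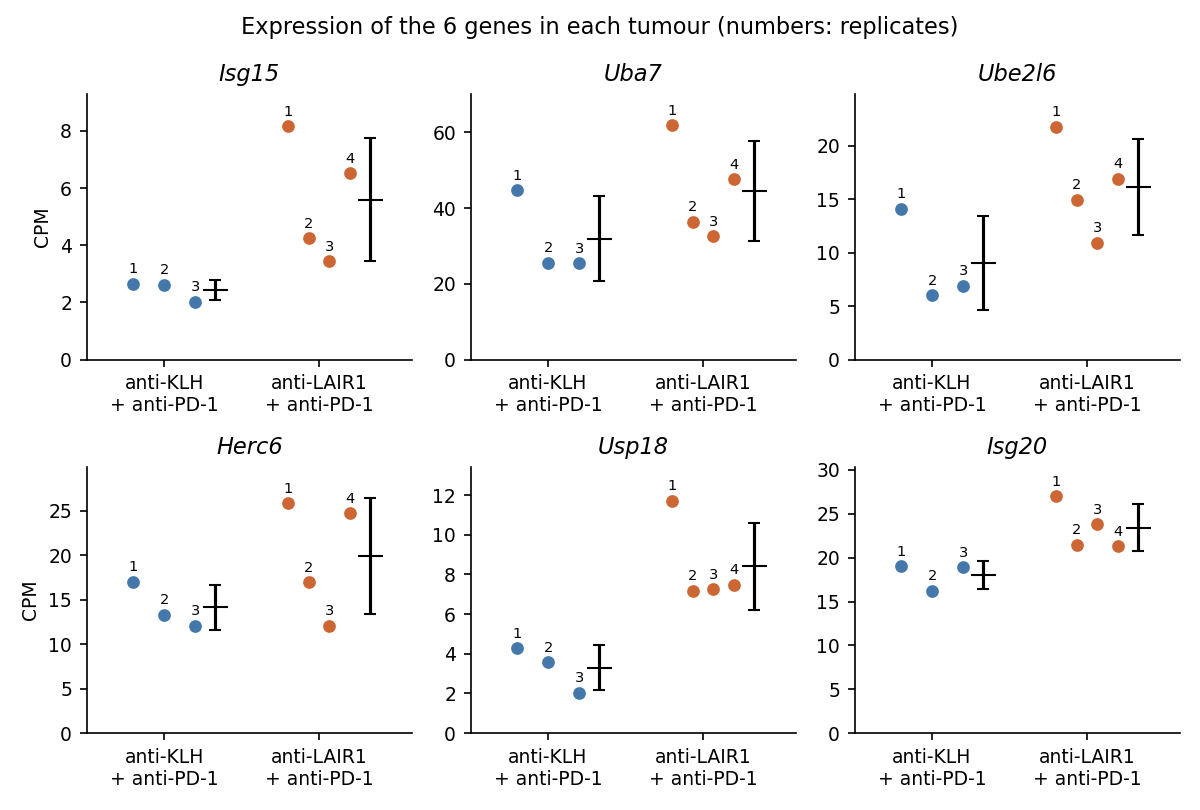
CPM of each gene (y axis, from 0, own scale per panel) in the 3 control tumours (blue) and the 4 anti-LAIR1 tumours (orange), numbered by replicate, with bars for the group mean ± SD. The groups are apart for Isg15, Usp18 and Isg20 and overlap for Uba7, Ube2l6 and Herc6, and anti-LAIR1 replicate 1 is the highest tumour in all 6 panels.

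Isg15, the modifier (chromosome 4, 156199424 to 156200818, GRCm38, minus strand), was counted with 67, 35 and 20 reads in control replicates 1, 2 and 3. In anti-LAIR1 replicates 1 to 4 it had 124, 64, 40 and 90 reads. Scaled to library size, these were 2.65, 2.62 and 2.03 CPM in the controls, and 8.16, 4.25, 3.45 and 6.53 CPM with anti-LAIR1. The controls lay close together, and the anti-LAIR1 tumours spread 2.36-fold from lowest to highest. The lowest of them stood 1.30-fold above the highest control. Group means were 2.43 ± 0.347 (SD, n = 3) and 5.60 ± 2.15 CPM (SD, n = 4). On the log2 scale the fold change was 1.19 ± 0.33 (SE), with a 95% interval from 0.45 to 1.93 (edgeR adjusted p = 0.716). Isg15 ranked 94 by p among the tested genes. When the striated muscle marker level entered the fit, the log2 fold change was 0.78.

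Usp18, the ISG15 protease (chromosome 6, 121245906 to 121270917, plus strand), measured 4.27, 3.59 and 2.03 CPM in the controls. With anti-LAIR1 it measured 11.7, 7.18, 7.25 and 7.48 CPM. Anti-LAIR1 replicates 2, 3 and 4 agreed closely and replicate 1 stood apart above them, while the lowest of the 4 was 1.68-fold above the highest control. The means were 3.30 ± 1.15 and 8.40 ± 2.21 CPM (SD, n = 3 and n = 4). On the log2 scale the fold change was 1.32 ± 0.29 (SE), with a 95% interval from 0.66 to 1.97 (edgeR adjusted p = 0.624), and Usp18 ranked 27 by p. DESeq2, run as an alternative, called Usp18 with an adjusted p of 0.0164, the 1 member among its 54 calls (0.388% of 13924 genes). That call ended without control replicate 2 (DESeq2 adjusted p = 0.177), without control replicate 3 (0.136) and when replicate 1 of the anti-LAIR1 group was left out (0.195). It held without each of the other 4 libraries (DESeq2 adjusted p from 0.0130 to 0.0416). An RNA gene on the opposite strand, Gm44148, overlaps exons of Usp18 and is no row of the count table, and whether the counting used strand is not known from these sources.

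Ube2l6, the E2 enzyme that carries activated ISG15 (chromosome 2, 84798828 to 84810335, plus strand), measured 14.1, 6.05 and 6.92 CPM in the controls. With anti-LAIR1 it measured 21.8, 15.0, 11.0 and 16.9 CPM. Control replicate 1 lay above anti-LAIR1 replicate 3 and just under replicate 2, so the groups overlapped through this 1 control. Means were 9.03 ± 4.43 and 16.1 ± 4.50 CPM (SD, n = 3 and n = 4), 0.81 ± 0.33 (SE) apart as a log2 fold change (edgeR adjusted p = 0.947). The 95% interval ran from 0.06 to 1.57, and without control replicate 1 the fold change was 1.32.

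Uba7, the E1 enzyme at the head of the chain (chromosome 9, 107975505 to 107984060, plus strand), measured 44.8, 25.6 and 25.4 CPM in the controls. With anti-LAIR1 it measured 61.8, 36.4, 32.5 and 47.7 CPM. Control replicate 1 exceeded anti-LAIR1 replicates 2 and 3. The means were 32.0 ± 11.1 and 44.6 ± 13.2 CPM (SD, n = 3 and n = 4), and the log2 fold change of 0.47 had an SE of 0.28 and a 95% interval from -0.18 to 1.12 (edgeR adjusted p = 0.991). Single libraries moved this value widely: leaving out control replicate 1 gave 0.80, and leaving out replicate 1 of the anti-LAIR1 group gave 0.28. Adding the muscle level to the fit gave 0.18. The last exons overlap Gm20661, a gene on the same strand that is no row of the table.

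Herc6, the ligase (chromosome 6, 57581000 to 57664632, plus strand), measured 17.0, 13.3 and 12.1 CPM in the controls. With anti-LAIR1 it measured 25.9, 16.9, 12.1 and 24.7 CPM. Anti-LAIR1 replicates 1 and 4 were high, replicate 2 was level with the highest control, and replicate 3 was level with the lowest. The means were 14.1 ± 2.56 and 19.9 ± 6.55 CPM (SD, n = 3 and n = 4). The log2 fold change of 0.49 had an SE of 0.26 and a 95% interval from -0.11 to 1.08 (edgeR adjusted p = 0.980), and adding the muscle level to the fit gave 0.23. Some of its exons are shared with Gm45193, an RNA gene on the same strand that is no row of the table.

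Isg20, the RNA exonuclease (chromosome 7, 78913424 to 78920396, plus strand), measured 19.0, 16.2 and 18.9 CPM in the controls and 27.0, 21.5, 23.8 and 21.3 CPM with anti-LAIR1. Its difference was the smallest of the 6 and its spread the narrowest, so the groups stayed apart, the lowest anti-LAIR1 tumour being 1.12-fold above the highest control. The means were 18.1 ± 1.59 and 23.4 ± 2.67 CPM (SD, n = 3 and n = 4). This gave a log2 fold change of 0.37 ± 0.13 (SE), with a 95% interval from 0.08 to 0.67 (edgeR adjusted p = 0.933).

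Levels were compared between genes as CPM per kilobase of annotated exon, which sets long and short genes on 1 scale but spreads reads over exons that these tumours may not use. In controls Isg20 stood highest, at 9.71 ± 0.855 CPM per kilobase (SD, n = 3). Uba7 followed at 4.78 ± 1.66, Ube2l6 at 4.52 ± 2.22 and Isg15 at 3.22 ± 0.459, which did not differ beyond their spread. Herc6 at 1.52 ± 0.276 and Usp18 at 1.18 ± 0.411 were lowest, again within each other's spread. With anti-LAIR1 (SD, n = 4) Isg20 was again highest at 12.6 ± 1.44. Ube2l6 at 8.09 ± 2.25, Isg15 at 7.41 ± 2.84 and Uba7 at 6.67 ± 1.97 came next with overlapping spreads, and Usp18 at 3.01 ± 0.792 and Herc6 at 2.14 ± 0.705 were lowest.

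The members largely varied together from tumour to tumour within a group, which was not counted for other genes. Anti-LAIR1 replicate 1 lay above its group's mean log2 CPM for all 6 genes, by 0.21 to 0.61, and replicate 2 lay below it for all 6. Replicate 3 lay below it for 5 of 6, with Isg20 at 0.031 above. Among the controls, replicate 1 lay above the group mean for all 6, by 0.08 to 0.74, and replicate 3 below it for 5 of 6. Anti-LAIR1 replicate 4 lay above for 4 and below for Usp18 and Isg20. Control replicate 2 was mixed too, above for Isg15 and Usp18 and below for the other 4. Control replicate 1 was the deepest library, with 26255727 counts, and the part of depth in its higher values was not tested. Averaged over the 6 genes, control replicate 1 reached a log2 CPM of 3.55, next to 3.57 in anti-LAIR1 replicate 3, the lowest of its group, and far from 4.42 in anti-LAIR1 replicate 1.

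The nearest profiles in the table were found among 12315 genes other than the members whose average log2 CPM was 1 or more, by the root mean square difference of mean-centred log2 CPM over the 7 libraries. Gbp5 was nearest to Isg15 at 0.163, followed by Ifit3 at 0.177, Mpeg1 at 0.196, Clec7a at 0.199 and Sulf2 at 0.204, where the median gene stood at 0.685. The other 5 members stood farther from Isg15 than these, from 0.322 for Usp18 to 0.510 for Isg20. Nearest to the mean profile of the 6 were Erap1 at 0.0865, Sel1l3 at 0.103, H2-T24 at 0.106, Parp12 at 0.107 and Dtx3l at 0.112, against a median of 0.515. All 10 had positive fold changes between the groups. That follows from their choice by likeness to profiles that were higher with anti-LAIR1, and is no separate result. Gbp5, for example, measured 16.1, 15.0 and 9.56 CPM in controls and 52.7, 24.9, 16.9 and 34.6 CPM with anti-LAIR1, which is the order of Isg15 in all 7 tumours.

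Outside the members, ISG15 has further reported ligases, proteases and a receptor, and most of these genes showed little difference. Of 10 such genes 8 had a positive fold change, with a median of 0.04, and 0 passed the adjusted test. At an unadjusted p under 0.05, 2 were higher and 0 lower, against 3.51% and 1.63% of all genes. One was Trim25, a ubiquitin ligase of the RIG-I pathway also described as an ISG15 ligase, at 122, 125 and 106 CPM in controls and 136, 135, 137 and 147 CPM with anti-LAIR1. Its groups were apart, and its log2 fold change was 0.24 ± 0.08 (SE, edgeR adjusted p = 0.933). The other was Itgal, the alpha chain of the leukocyte integrin LFA-1, a receptor of extracellular ISG15, at 6.75 ± 2.11 and 13.9 ± 4.36 CPM (SD, n = 3 and n = 4) in overlapping groups. The log2 fold change of Itgal was 1.02 ± 0.30 (SE, edgeR adjusted p = 0.762). Itgb2, the beta chain of the same integrin, had a log2 fold change of 0.03, and the proteases Usp5 and Usp16 had -0.14 and 0.11.

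Upstream, genes of the interferon signal differed mainly in the transcription factors. Of 14 listed genes 12 were tested, 11 with a positive fold change and a median of 0.19. The adjusted test passed 0. At an unadjusted p under 0.05, 4 were higher and 0 lower, against 3.51% and 1.63% of all genes. Irf7, which drives interferon and interferon-stimulated genes, measured 27.6, 14.5 and 12.8 CPM in controls and 54.9, 34.3, 28.6 and 34.4 CPM with anti-LAIR1, in groups that were just apart (log2 fold change 1.03, SE 0.32, edgeR adjusted p = 0.868). Stat2, Irf1 and the receptor chain Ifnar2 had log2 fold changes of 0.58, 0.78 and 0.25 in overlapping groups, and Ifnar1, the other chain, had 0.0023. The 2 interferons on the list were hardly counted: Ifnb1 was at 0 in all 3 controls and in anti-LAIR1 replicates 1 and 3, and Ifng did not pass 0.726 CPM in any tumour. Both were below the filter and were not tested.

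Reported targets of ISG15 conjugation split into the interferon-induced and the others. Of 20 listed symbols 19 were in the table and tested, 14 with a positive fold change and a median of 0.06. The adjusted test passed 0. At an unadjusted p under 0.05, 4 were higher and 0 lower, against 3.51% and 1.63% of all genes. These 4 were Mx1, Ifit1, Ifit3 and Ddx58, all induced by interferon. Mx1, an antiviral GTPase, measured 1.74, 1.87 and 1.73 CPM in controls and 8.16, 5.91, 3.97 and 9.73 CPM with anti-LAIR1 (log2 fold change 1.96, SE 0.33, edgeR adjusted p = 0.540). Ifit1 and Ifit3, which bind viral RNA or its complexes, had log2 fold changes of 1.39 and 1.00 in groups that were apart, and Ddx58, the RNA sensor RIG-I, had 0.70 in groups that overlapped. Targets without interferon in their usual control, such as Ube2n and Becn1, had -0.06 and -0.06.

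Relatives of the members, most of which serve ubiquitin, were set beside the E1, the E2 and the HERC ligase. The list also held relatives of Isg20, but no tested relative of Usp18. Uba1, the ubiquitin E1, Ube2l3, the nearest E2 relative of Ube2l6, and Herc3 had log2 fold changes of 0.01, -0.05 and -0.07. Of 14 relatives tested 6 had a positive fold change, the median was -0.04, and 0 passed at an adjusted or an unadjusted p of 0.05. The largest belonged to Ubd, which encodes the inflammation-induced modifier FAT10, at 0.397 ± 0.497 and 1.05 ± 0.354 CPM (SD, n = 3 and n = 4) in overlapping groups (log2 fold change 1.45, SE 0.73). Ubd lay at or below the 3-read level in control replicates 1 and 3, at 0.119 and 0.102 CPM. In the other tumours it measured 0.665 to 1.45 CPM. Among 21 genes of the NEDD8, SUMO, UFM1, URM1 and ATG12 systems, the median fold change was 0.00012, that of Atg7 was -0.16, and 0 passed at either threshold. Within a library, Ube2l6 reads made up 0.166, 0.0830 and 0.0816 of those of Ube2l3 in controls. With anti-LAIR1 they made up 0.295, 0.195, 0.130 and 0.221, and control replicate 1 again overlapped that group. The ratios of Uba7 to Uba1 and of Herc6 to Herc4 overlapped too, while that of Isg20 to Isg20l2 did not.

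**Figure D2:**
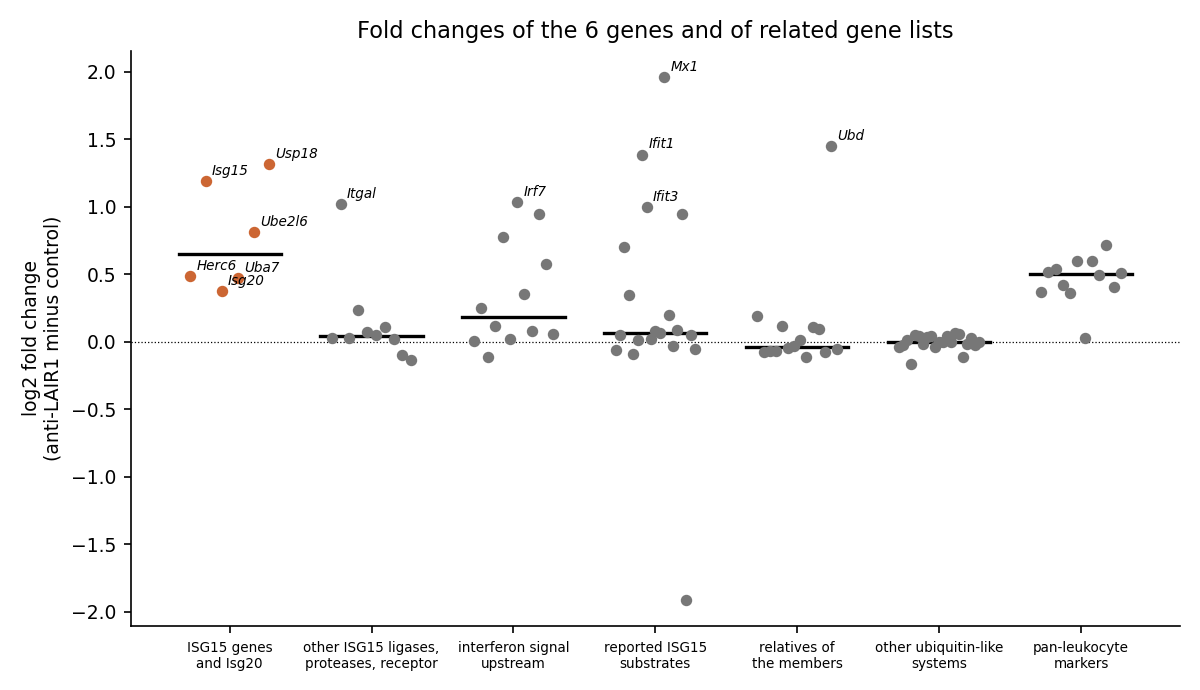
Log2 fold change, anti-LAIR1 minus control (y axis), of each tested gene (points) in the 6 members (orange) and in 6 related lists (grey), with black lines for medians. The members have a median of 0.65, the other ubiquitin-like systems 0.00012 and the pan-leukocyte markers 0.50.

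Markers of leukocytes were also mostly higher with anti-LAIR1, though 0 passed the adjusted test. Of all genes tested, 49.1% had a positive fold change. All 12 pan-leukocyte markers (Ptprc, Lcp1, Laptm5 and others) had positive fold changes, with a median of 0.50, and their summed level was 257 to 300 CPM in controls and 349 to 443 CPM with anti-LAIR1, without overlap. Macrophage and monocyte markers were positive for 11 of 12, with a median of 0.39, and summed to 375 to 578 and 485 to 613 CPM. T cell markers were positive for 7 of 7 tested, with a median of 1.40, and summed to 4.04 to 15.3 and 7.42 to 38.1 CPM. The 6 markers of plasmacytoid dendritic cells, strong interferon producers, summed to 74.1 to 80.8 CPM in controls and 82.8 to 108 CPM with anti-LAIR1. Most of that sum came from Bst2 and Tcf4, while Siglech was at or below 0.653 CPM in every tumour, and both tested markers had positive fold changes (0.61 for Bst2 and 0.08 for Tcf4). Neutrophil markers were positive for 1 of 3 tested, with a median of -0.26. The 6 markers of B cells and plasma cells, of which 0 were tested, summed to 0.748 to 1.02 CPM in controls and 0.395 to 6.60 CPM with anti-LAIR1. Among them Ms4a1 was at 0 in all 7, while Jchain reached 6.39 CPM in anti-LAIR1 replicate 4. Endothelial markers were positive for 5 of 6, with a median of 0.35, and summed to 66.1 to 98.9 CPM in controls and 99.7 to 116 CPM with anti-LAIR1, without overlap. Their part in the members' values was not tested. In bulk tumours, more leukocytes and more RNA of these genes per cell cannot be told apart.

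Set against the summed pan-leukocyte markers of the same library, Isg15 and Usp18 still separated the groups and the other 4 genes did not. Isg15 stood at 8.84, 9.75 and 7.91 CPM per 1000 CPM of markers in controls and at 18.4, 12.2, 9.90 and 15.9 with anti-LAIR1. The lowest anti-LAIR1 value was just above the highest control. Usp18 stood at 14.3, 13.4 and 7.91 in controls and at 26.4, 20.6, 20.8 and 18.2 with anti-LAIR1, a wider gap. Of all genes tested, 0.340% were higher without overlap on this scale. Uba7 averaged 115 ± 30.3 and 113 ± 19.8, Herc6 51.1 ± 5.04 and 50.4 ± 11.7, and Isg20 65.8 ± 6.85 and 60.7 ± 6.76 (SD, n = 3 and n = 4). Ube2l6 averaged 32.2 ± 13.1 and 41.1 ± 7.35, with overlap.

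**Figure D3:**
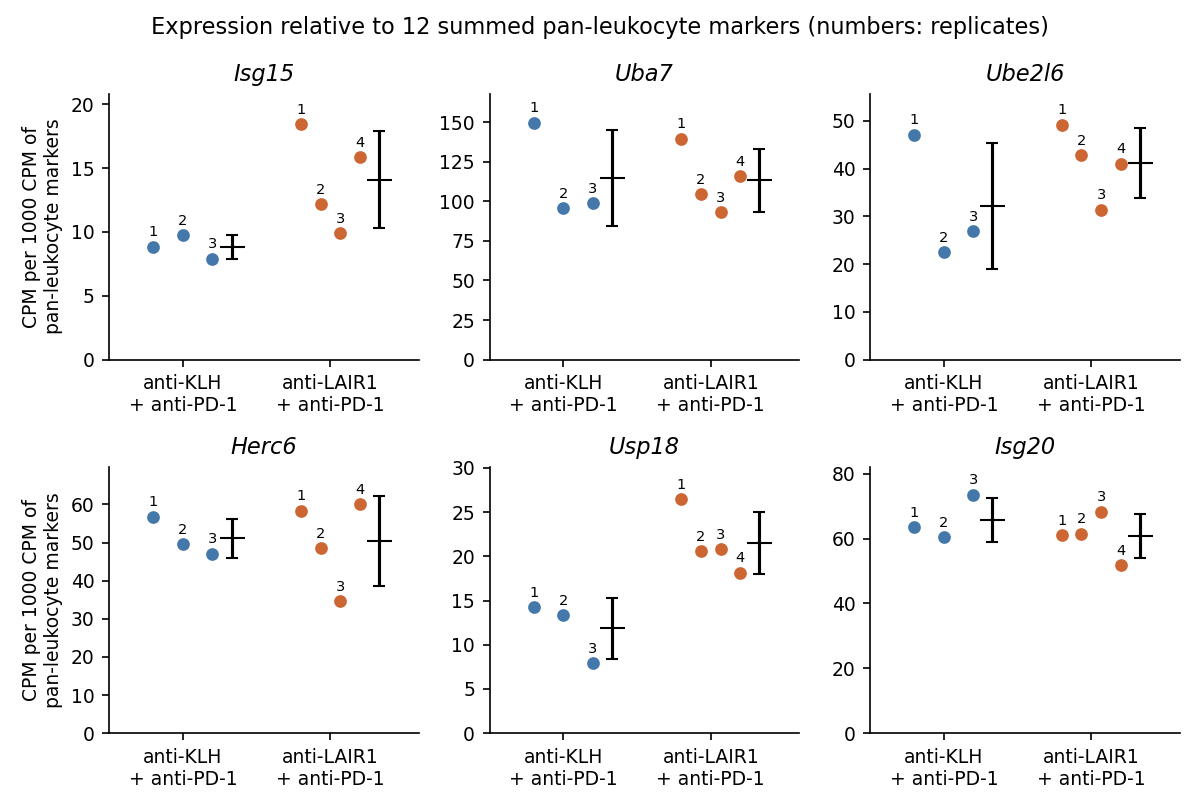
Level of each gene divided by the summed CPM of 12 pan-leukocyte markers in the same library (y axis, CPM per 1000 CPM of markers, from 0), in control (blue) and anti-LAIR1 (orange) tumours numbered by replicate, with mean ± SD. Isg15 (from 9.90 with anti-LAIR1, up to 9.75 in controls) and Usp18 remain apart, and the other 4 genes overlap.

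Striated muscle RNA also differed between the tumours. Its markers summed to 11.8 to 15.8 CPM in controls and 15.9 to 128 CPM with anti-LAIR1, and Ttn, the giant muscle protein titin, measured 94.5, 8.11, 61.5 and 89.1 CPM in anti-LAIR1 replicates 1 to 4 against 2.97 to 5.53 CPM in controls. Myh4 and Myh2, fast muscle myosins, were at 0 in all 3 controls and in anti-LAIR1 replicate 2. Anti-LAIR1 replicate 2, at 15.9 CPM of muscle markers, lay next to the controls, while replicates 1, 3 and 4 stood far higher. Muscle level thus largely followed treatment, and the fits with muscle level could barely separate them. In those fits only Usp18 among the members kept an unadjusted edgeR p under 0.05. The part of muscle RNA in the members' values was not tested beyond these fits. Anti-LAIR1 replicate 2 stood apart instead in adipocyte RNA, whose 6 markers summed to 91.8 CPM there and to 3.24 to 18.1 CPM in the other 6 tumours. Without this tumour the log2 fold changes of Isg15 and Usp18 were 1.31 and 1.39. Control replicate 3 stood apart in skin RNA: its skin markers summed to 125 CPM, against 12.9 to 34.7 CPM in the other 6 tumours, and Krt5, a basal keratin, measured 40.3 CPM there and at most 0.0863 CPM elsewhere. Both tested skin markers, Krt14 and Krt10, were lower with anti-LAIR1 at an unadjusted p under 0.05, with log2 fold changes of -0.99 and -1.92. Without control replicate 3, Isg15 and Usp18 both had a log2 fold change of 1.09.

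**Figure D4:**
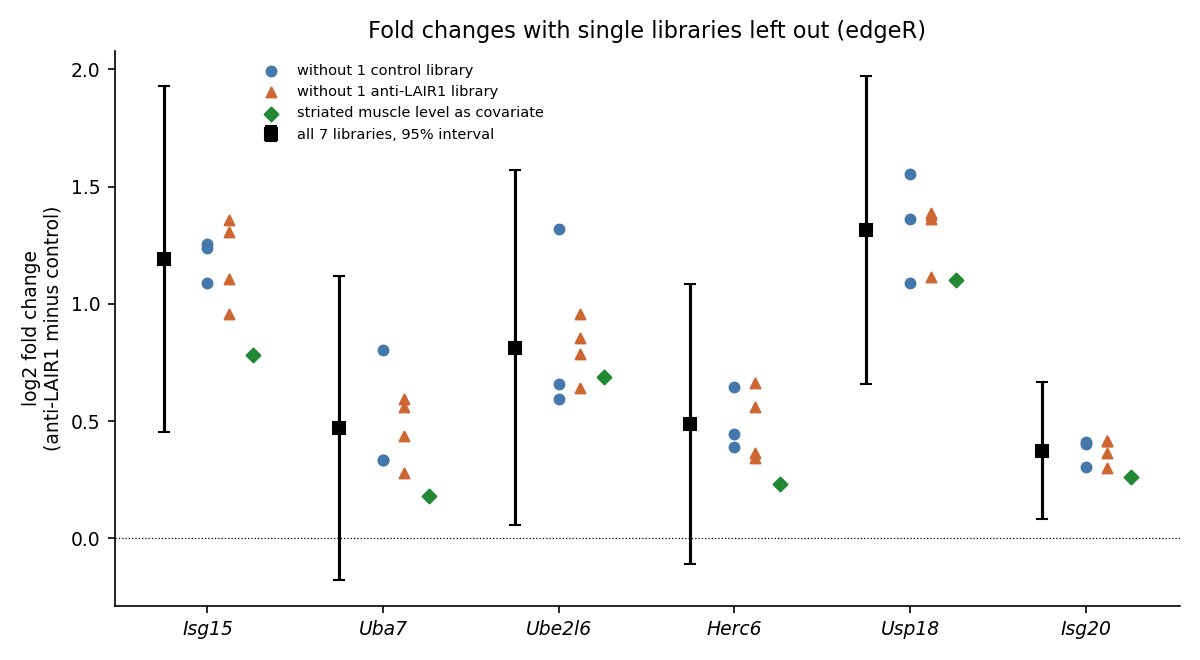
Log2 fold change, anti-LAIR1 minus control (y axis), of each gene from all 7 libraries (black squares, bars for the 95% interval), without single control (blue circles) or anti-LAIR1 libraries (orange triangles), and with striated muscle level as a covariate (green diamonds). All fold changes are above 0, and Uba7 ranges from 0.18 to 0.80 while Usp18 ranges from 1.09 to 1.55 over the plotted fits.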

How the data were processed

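The deposited file holds raw counts of reads for each gene symbol and mouse. The tools named, per the submitters' processing notes, are STAR 2.7.6, Trim Galore, edgeR 3.40.1 and featureCounts 2.0.1, on build mm10. The annotation, the use of strand and the handling of multi-mapped reads in that counting are not stated there. Counts were used as deposited, in R 4.3.3 with edgeR 4.0.16: filterByExpr (minimum count 10), TMM scaling, and the quasi-likelihood test with robust dispersions on all 7 libraries, with Benjamini-Hochberg adjustment over all tested genes. The 95% intervals came from this fit's SE. CPM used TMM-scaled totals, and log2 CPM a prior count of 2. DESeq2 1.42.0, limma 3.58.1 (voom), other scalings and filters, a muscle covariate and leaving out each library were alternatives, and the fit was tested on simulated data. Positions and exon lengths came from GENCODE M21 (GRCm38). Replicates are separately named mice, and counting floors cover counting error only. Members and lists were chosen with earlier results of these data known. Genes named besides the members were up to 4 per list with the smallest p, the 5 nearest profiles to Isg15 and to the members' mean, and Lair1. Others illustrate a list and were chosen after their values were seen. Some genes of these lists are not reported here by name.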

Additional observations from a re-analysis of the deposited data

Results flagged for a closer look

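Usp18 in anti-LAIR1 replicate 1, at 11.7 CPM, stood far from the other 3 tumours of its group: the gap to the nearest was 0.934 of the group's whole range, past Dixon's critical value for 4 samples. By chance about 1 in 20 groups pass that critical value, and the 6 members were looked at. Without this tumour the log2 fold change of Usp18 was 1.12 ± 0.28 (SE, edgeR adjusted p = 0.917). The same tumour had the highest level of all 6 members. Usp18 was not the only member with a tumour far from its group. Uba7 in control replicate 1 measured 44.8 CPM, against 25.6 and 25.4 CPM in control replicates 2 and 3.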

How the results depend on the processing

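The 6 fold changes were positive in all 90 fits of a member under an alternative. No member passed an adjusted p of 0.05 with edgeR under any scaling, filter, covariate or left-out library, or with limma-voom. DESeq2 called 1 member, Usp18, and 54 genes in all. Beside the 0 calls, edgeR gave 697 genes, limma-voom 1005 and DESeq2 792 an unadjusted p under 0.05. Without single libraries edgeR called 0 to 3 genes and 0 members, and the members' median fold change ran from 0.49 to 1.03 on the log2 scale, the highest without control replicate 1. Over 15 other settings, an unadjusted p under 0.05 was reached by Usp18 in 15, Isg15 in 14, Isg20 in 13 and Ube2l6 in 9. Isg15 missed it with the muscle covariate. Uba7 and Herc6, which had not reached it in the main fit, did so in 1 each. DESeq2 without single libraries was added after seeing the data. Depth limits Isg15 most, which had 20 to 124 reads per library. No paired analysis was possible because the labels give mouse names and no shared replicate numbers.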

Other observations

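Within libraries, Herc6 reads numbered 6.42, 5.09 and 5.95 per Isg15 read in controls and 3.17, 3.98, 3.50 and 3.79 with anti-LAIR1, without overlap. Of all genes tested, 73.5% were lower relative to Isg15 without overlap. Usp18 reads per Isg15 read averaged 1.33 ± 0.308 (SD, n = 3) and 1.59 ± 0.405 (SD, n = 4), with overlap.

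Trp63, an epidermal transcription factor among the reported ISG15 targets, measured 6.00 CPM in control replicate 3 and at most 0.972 CPM in the other 6 tumours. Control replicate 3 was also the tumour with the highest level of skin markers, with 16.4 CPM of Krt1 and 21.1 CPM of Krt10. Trp63 and these markers are named here after their values were seen.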
